A study of Mus musculus with 6 samples.

Results

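The genes described here encode the replication-dependent histones H3 and H4, and were taken as every row of the table whose symbol is H3c or H4c followed by digits. They number 9 of the 2065 genes listed: the H3 genes H3c3, H3c11, H3c13 and H3c15, and the H4 genes H4c1, H4c2, H4c6, H4c9 and H4c18. RefSeq annotates 24 protein-coding genes of this naming in the mouse, 12 for each protein, and the other 15 were not analysed here. RNA came from MLO-Y4, a wild-type mouse osteocyte-like line from bone, kept for 24 h either at 20% O2 (labelled normoxia, replicates 2, 3 and 4) or at 2% O2 in a hypoxic chamber (labelled hypoxia, replicates 1, 2 and 4), with the same serum-containing medium, 5% CO2 and no other agent in both groups. The line is, as background, immortalised with a viral large T antigen driven by the osteocalcin promoter, so its cell cycle is not that of an osteocyte in bone.

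Histones H3 and H4 form the tetramer at the core of the nucleosome, around which DNA is wound. A dividing cell has to double its supply of both while it copies its DNA, and the replication-dependent genes provide it: they lie in clusters, have no introns, and are transcribed mainly in S phase. Their messenger RNAs are unusual among those of animals in ending in a conserved stem-loop in place of a poly(A) tail. The stem-loop binding protein SLBP holds this hairpin during processing, export and translation, and the RNA is degraded when DNA synthesis stops. The libraries were prepared with a stranded kit for messenger RNA, a kind that selects RNA by its poly(A) tail, so the entries of these genes come from whatever tailed or carried-over histone RNA the selection retained. How much of that RNA had a tail was not tested.

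The hairpins are shown because they are a shared feature of replication-dependent histone RNAs. A perfect 6-base stem with a 4-base loop was looked for within 120 bases after the stop codon in the GENCODE vM21 transcript of each gene. The stem had to start with GG, and all loop bases but the last had to be T or C. These letters are therefore set by the search. It was found in 7 of the 9, and the stem is in capitals, with the sequence written as DNA.
H3c15: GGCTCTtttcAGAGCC
H3c3: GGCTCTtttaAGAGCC
H4c9: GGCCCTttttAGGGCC
H4c1: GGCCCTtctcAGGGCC
H4c18: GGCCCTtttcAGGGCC
H4c6: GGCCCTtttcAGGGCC
H4c2: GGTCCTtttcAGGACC
The hairpin began 24 to 33 bases after the stop codon. It is not particular to H3 and H4. By the same rule the listed H2A genes H2ac8, H2ac18, H2ac19, H2ac23 and H2ac24 have the same hairpin as H3c15. The transcript of H2ac22 ends at the stop codon. Of the listed H2B genes, H2bc3, H2bc8 and H2bc12 also have a hairpin. The annotated transcripts of H3c11 and H3c13 end 0 and 37 bases after the stop codon, and hold no such hairpin. Those of H3c15 and H4c9 run 377 and 330 bases past the hairpin, and that of H4c9 holds 2 poly(A) signals (AATAAA or its variant ATTAAA) after the stop codon. H4c1 has 1 such signal, and the transcripts of the other 7 genes have 0 after the stop codon.

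The copies are close to identical. Among the 5 H4 genes the coding sequences shared 94.9% to 97.4% of bases and all 10 pairs encode the same protein. Among the 4 H3 genes they shared 93.7% to 99.8%, and H3c11 differed from the other 3 by 1 residue. H3c13 and H3c15, which lie in the same cluster on chromosome 3, differed at 1 coding base. Of all 75-base windows in a member's transcript, between 22.4% (H4c9) and 83.4% (H4c18) occurred unchanged in a transcript of another gene. Values of single members are therefore uncertain as to which copy the reads came from, and the sources used here do not give how shared reads were counted. In GENCODE vM21 a gene on the opposite strand overlaps H3c13 and another overlaps H4c2, and whether the counting used strand is also not given.

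The table lists genes that the authors selected for a difference between these same libraries, whose log2 fold change in the authors' deposited table was never closer to 0 than 1.00, so a member's presence in it and its passing of the test are not independent evidence. Entries were read as log2(value + 1), the linear unit is not named, and depth per library is unknown. The listed values summed to between 161067 and 183535 per library. Targets of the hypoxia-inducible factor HIF, which rise when oxygen is low, went against the labels: of 20 such genes 12 were listed, 11 lower and 1 higher in the libraries labelled hypoxia. The glucose transporter Slc2a1 changed by -3.13 ± 0.09 (SE), the oxidase Ero1a by -3.10 ± 0.11 and the prolyl hydroxylase Egln1 by -1.60 ± 0.11. Directions below are therefore given by label only. Of 10 osteocyte markers 2 were listed, Pdpn and Trp53inp2, and the defining markers Sost, Dmp1, Phex and Fgf23 have no value here. Pdpn (1.76) and Trp53inp2 (1.98) were higher with the hypoxia label. Of 9 osteoblast markers 6 were listed, with Phospho1 (-2.24) and Runx2 (-1.04) lower like the histone genes, and Col1a1 (2.71), Bglap2 (1.87), Bglap (1.78) and Spp1 (1.10, below 0 with TMM) higher. Of 12 macrophage and osteoclast markers Cd68 (-1.46) was lower and Mmp9 (1.16) higher. Of 6 muscle markers Acta1 (-2.59) was lower, of 6 adipocyte markers Cebpa (1.20) was higher, and of 7 endothelial markers 0 were listed. The part of these in the histone result was not tested.

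All 9 H3 and H4 genes were lower in the libraries labelled hypoxia. Differences ran from -2.22 (H3c15) to -1.02 (H4c6) on the log2(value + 1) scale, with a median of -1.44. As ratios of mean linear values, 7 of the 9 genes were between 2.39 times (H3c3) and 4.94 times (H3c15) as high with the normoxia label. The ratios of H4c1 (6.26) and H4c6 (6.47) rest on linear values near 0 with the hypoxia label: without hypoxia replicate 1 they came to 9.76 and 18.7, and the lowest values with another library left out were 5.29 and 4.32. In limma's test over all 2056 tested genes the 9 passed a Benjamini-Hochberg adjusted p of 0.05, and 20.6% of tested genes were called lower. The test was fitted to selected genes alone. For all 9 genes the authors' deposited adjusted p-values, from a test not named in the sources used here, were larger than limma's. They ran from 0.000193 (H3c15) to 0.0256 (H4c6). The median of all tested genes was 1.15, and 79.4% were called higher. Entries of both groups did not overlap in any of the 9 genes, which also held for 99.9% of tested genes, and 100% of tested genes were called in either direction. In bulk RNA, fewer cells in S phase and less histone RNA per cell cannot be told apart, and no label tells whether the replicates were grown as separate cultures, and the p-values then cover no more than library-to-library spread, which may be technical.

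**Figure D1:**
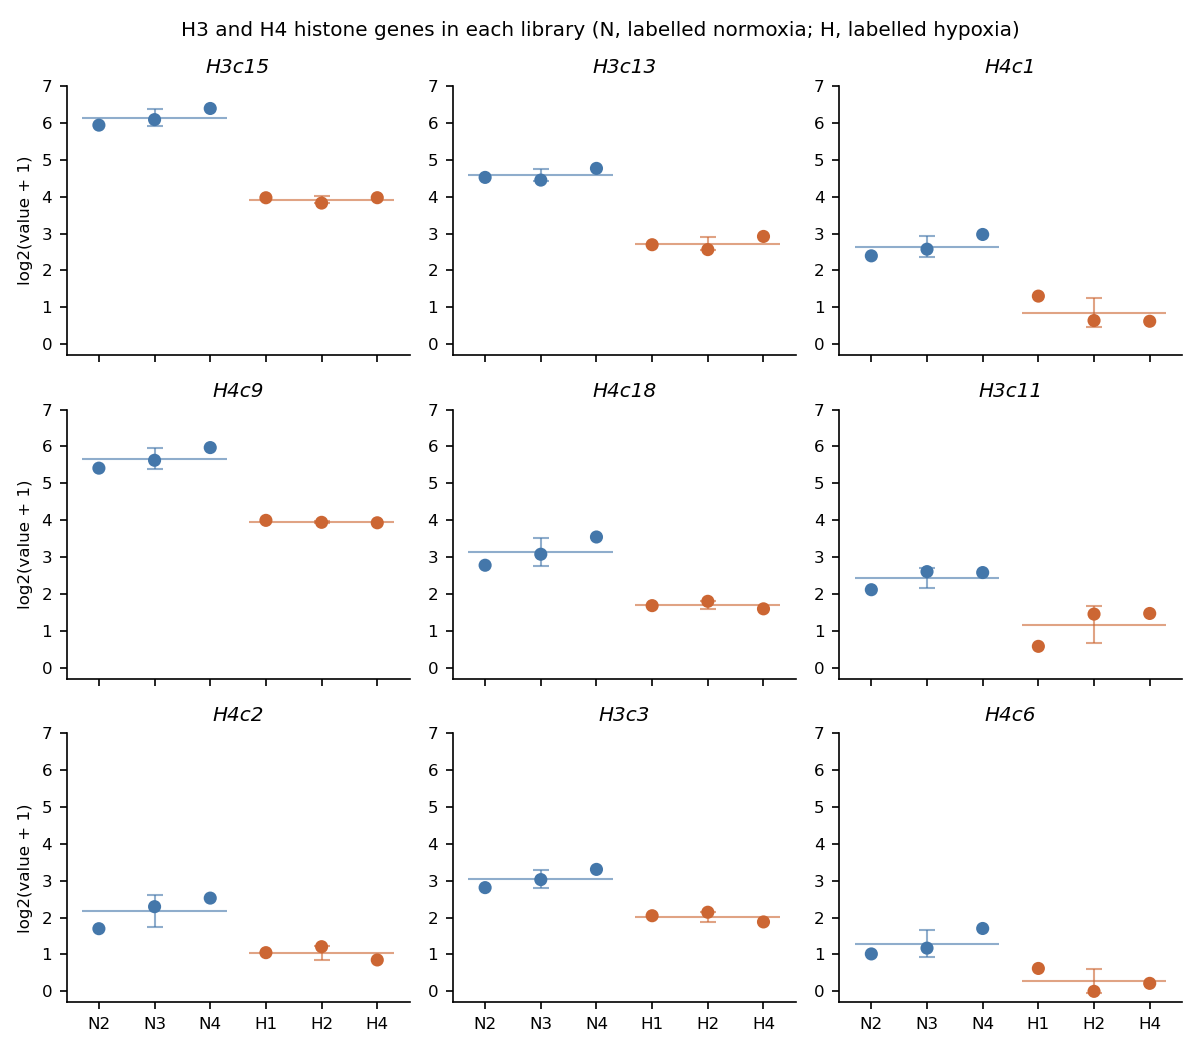
Each panel plots 1 gene, with the log2(value + 1) entry of each library on the vertical axis and the libraries on the horizontal axis (N, labelled normoxia; H, labelled hypoxia; the digit is the replicate number). Lines are group means and bars SD of 3 libraries. In every panel the 3 normoxia points lie above the 3 hypoxia points, from a gap of 1.97 in H3c15 to 0.39 in H4c6.

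Among the H3 genes, H3c15 (ENSMUSG00000081058, chromosome 3) had the largest difference on this scale. Its entries were 5.94, 6.09 and 6.39 with the normoxia label and 3.97, 3.83 and 3.97 with the hypoxia label. The lowest normoxia library was 1.97 above the highest hypoxia library, and the group means were 6.14 ± 0.23 and 3.92 ± 0.08 (SD, n = 3). The difference was -2.22 ± 0.12 (SE; limma, adjusted p = 1.37e-07), a 4.94-fold ratio of linear means.

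H3c13 (ENSMUSG00000074403, chromosome 3), which encodes the same protein from the same cluster, stood at 4.52, 4.45 and 4.77 under the normoxia label and at 2.70, 2.56 and 2.92 under the hypoxia label. The groups were separated by 1.53, and the 3 libraries of each group lay close together. The difference was -1.85 ± 0.12 (limma, adjusted p = 4.18e-07), with group means of 4.58 ± 0.17 and 2.73 ± 0.18 (SD, n = 3).

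H3c3 (ENSMUSG00000069310, chromosome 13), which encodes the same H3 protein from the large cluster, had entries of 2.81, 3.03 and 3.31 against 2.05, 2.14 and 1.88. The groups were separated by 0.67. It had the smallest ratio of linear means among the 9, 2.39-fold, and changed by -1.02 ± 0.14 (limma, adjusted p = 5.06e-05).

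H3c11 (ENSMUSG00000101972, chromosome 13), whose protein differs by 1 residue, had entries of 2.12, 2.61 and 2.58 against 0.58, 1.46 and 1.47. Hypoxia replicate 1 lay below the other 2 hypoxia libraries, which were nearly equal. The difference was -1.27 ± 0.26 (limma, adjusted p = 0.00135), with the widest SE of the 9, and was -0.97 without hypoxia replicate 1.

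Among the H4 genes, H4c9 (ENSMUSG00000060639, chromosome 13) stood at 5.41, 5.63 and 5.97 with the normoxia label and at 4.0, 3.94 and 3.93 with the hypoxia label. The hypoxia libraries were almost level (SD 0.035), and the normoxia libraries spread more widely (SD 0.28). H4c9 changed by -1.71 ± 0.13 (limma, adjusted p = 9.58e-07), a 3.48-fold ratio.

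H4c18 (ENSMUSG00000069305, chromosome 13) had entries of 2.78, 3.08 and 3.55 against 1.68, 1.80 and 1.60, and changed by -1.44 ± 0.18 (limma, adjusted p = 3.03e-05). Its ratio of linear means, 3.56-fold, was near that of H4c9. H4c1 (ENSMUSG00000060093, chromosome 13) had 2.40, 2.58 and 2.98 against 1.30, 0.64 and 0.62, with hypoxia replicate 1 above the other 2. It changed by -1.79 ± 0.21 (limma, adjusted p = 3.08e-05).

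The H4 genes H4c2 and H4c6 also lie on chromosome 13. H4c2 (ENSMUSG00000069266) had entries of 1.70, 2.30 and 2.53 against 1.05, 1.21 and 0.85, a difference of -1.14 ± 0.20 (limma, adjusted p = 0.000477). H4c6 (ENSMUSG00000069274) had 1.01, 1.17 and 1.70 against 0.62, 0 and 0.22, a difference of -1.02 ± 0.21 (limma, adjusted p = 0.00135). In hypoxia replicate 2 it is listed at 0. A gene was tested if its linear value was at least 1 in at least 3 libraries: 5 members reached this in all 6 libraries, and H3c11, H4c1, H4c2 and H4c6 did so in 5, 4, 5 and 3, so H4c6 passed through the normoxia libraries alone.

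The size of the decrease was set side by side within libraries, with H3c15 as the reference. H3c15 has the largest difference of the 9, so a lower difference from each of the other 8 follows from that choice, and the sizes are given as a description with no test. The entry of H3c15 minus that of the other gene was lower with the hypoxia label by 0.37 for H3c13 up to 1.20 for H4c6. These sizes depend on the pseudocount, since adding 1 compresses low values. With 0.1 added in place of 1, the difference of H3c15 from H4c1 was 0.33 and that from H4c6 0.29, the opposite direction, while that from H3c3 was -1.07 and that from H4c9 was -0.51. The order of the 9 genes by size of change is therefore not fixed by these data.

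The listed genes of each family were also summed, 4 of 12 H3 genes and 5 of 12 H4 genes, and reads shared with copies outside the sums bear on them too. The summed linear value of the 4 H3 genes was 91.7, 100.2 and 123.0 with the normoxia label and 23.8, 23.3 and 25.7 with the hypoxia label, a 4.33-fold ratio of means. For the 5 H4 genes the sums were 54.97, 65.9 and 86.2 against 20.3, 18.7 and 17.8, a 3.65-fold ratio. In both families the hypoxia libraries lay within a narrow band and the lowest normoxia library was far above it.

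Among the normoxia libraries replicate 4 was the highest of the 3 in 8 of the 9 genes, and replicate 2 was the lowest in 8 of 9. The median deviation of the 9 genes from their group mean was -0.26 in replicate 2, -0.05 in replicate 3 and 0.30 in replicate 4, where that of all tested genes was 0.09, -0.03 and -0.07. Over the 423 genes called lower, replicate 4 was the highest in 51.8%, with a median deviation of 0.06. How often replicate 2 was the lowest over those genes was not counted. Among the hypoxia libraries each was the highest in 3 of the 9 genes, and the median deviations lay between -0.06 and 0.02. The descriptions of replicates 2, 3 and 4 of normoxia state 24, 25 and 26 h where the titles state 24 h, and those of hypoxia replicates 1, 2 and 4 state the same hours. Whether a difference in time has a part in this spread was not tested. Without normoxia replicate 4 the differences of the 9 genes kept their direction and passed limma's test. Over all tested genes 1633 were then called higher and 423 lower, the same counts as with all libraries.

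**Figure D2:**
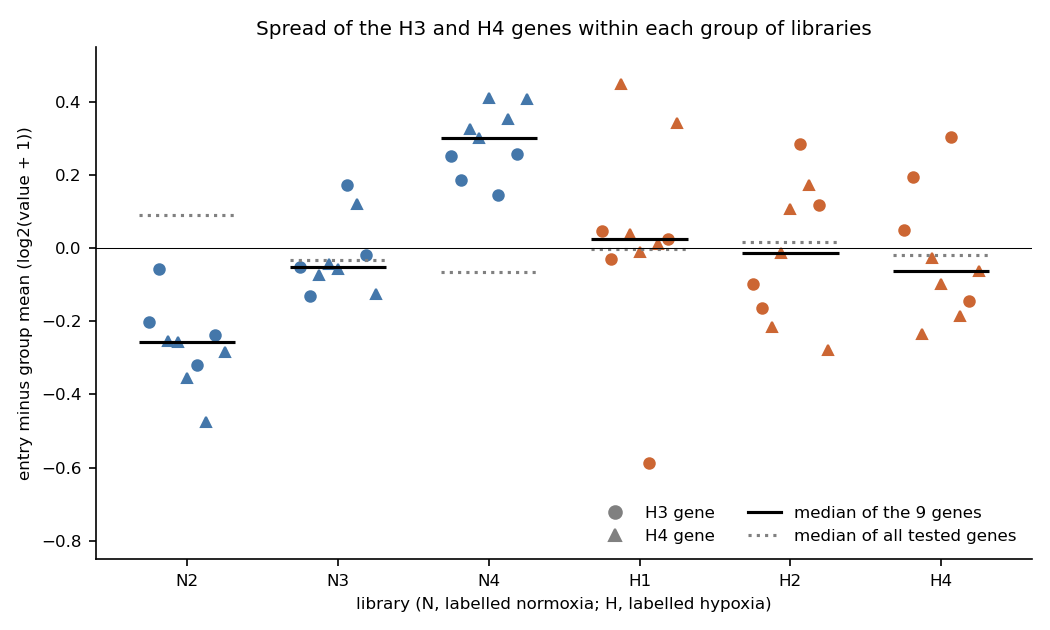
Points are the 9 genes (circles, H3; triangles, H4), plotted as each library's entry minus the mean of its group on the log2(value + 1) scale, by library (N, labelled normoxia; H, labelled hypoxia). Solid lines are medians of the 9 genes and dotted lines medians of all tested genes. The 9 genes lie below 0 in normoxia replicate 2 and above 0 in normoxia replicate 4, with medians of -0.26 and 0.30.

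The other core histones were set beside H3 and H4, as the nucleosome takes all 4 in equal amounts. Of 17 H2A genes (H2ac) 6 were listed, and all 6 were called lower, as were 20.6% of all tested genes. Their differences lay between -1.81 (H2ac22) and -1.55 (H2ac18), with a median of -1.61. H2ac22 had a mean linear value of 0.315 with the hypoxia label and passed the filter through the normoxia libraries alone. The hypoxia means of H2ac23 (0.80) and H2ac24 (0.85) were also below 1. Of 16 H2B genes (H2bc) 5 were listed, 3 lower and 2 higher. The lower ones were H2bc12 (-1.51 ± 0.16), H2bc3 (-1.33 ± 0.16) and H2bc8 (-1.23 ± 0.22). The higher ones were H2bc21 (1.49 ± 0.15) and H2bc18 (1.34 ± 0.19), and with factors from a trimmed mean of log ratios (TMM) only H2bc21 of these 2 was still called higher. Of 10 linker histone genes 0 were listed. That all listed H2A genes and 3 of the H2B genes were lower like H3 and H4 is a description of selected genes, and no test of a shared cause was made.

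H2bc21 and H2bc18 lie in the same cluster on chromosome 3 as 2 of the H3 genes. In RefSeq order the listed histone genes there are H2bc21, H3c15, H2ac19, H2ac18, H3c13 and H2bc18. The entries of H2bc18, next to H3c13, were 1.58, 0.87 and 1.56 with the normoxia label and 2.81, 2.50 and 2.72 with the hypoxia label, so neighbouring genes moved in opposite directions. Those of H2bc21, next to H3c15, were 1.61, 1.15 and 1.01 against 2.69, 2.74 and 2.79. The GENCODE transcript of H2bc21 holds 3 poly(A) signals after the stop codon and no hairpin by the rule above. That of H2bc18 ends at the stop codon, so nothing can be said of its end.

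Of 14 genes for histone variants and their copies 3 were listed, and as deposited all 3 were called higher, as were 79.4% of tested genes. With TMM factors 0 of the 3 were called higher. H3f3a, which encodes the replacement form of H3 deposited throughout the cell cycle, stood at 7.75, 7.61 and 7.54 with the normoxia label and at 8.70, 8.76 and 8.71 with the hypoxia label. It rose by 1.09 ± 0.08 (limma, adjusted p = 6.09e-07), and with TMM factors its change was -0.20 and called lower, so its direction depends on the scaling. The H3f3c row, a processed pseudogene in the table, rose by 1.10 ± 0.09 (-0.18 with TMM) and may share reads with H3f3a. H2ax, a variant whose phosphorylation marks DNA breaks, rose by 1.54 ± 0.13 (0.26 with TMM, not called). The differences of the H3 and H4 genes ran from -3.46 to -1.53 under TMM and from -3.0 to -1.37 under quantile normalization. These scalings moved the median of all tested genes from 1.15 to 0.0037 and 0.36. They were computed from the tested genes alone, which were selected for a difference and were mostly higher. Moving the median down carries most genes down with it. That the H3 and H4 genes stayed below 0 is therefore no independent check of their direction.

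**Figure D3:**
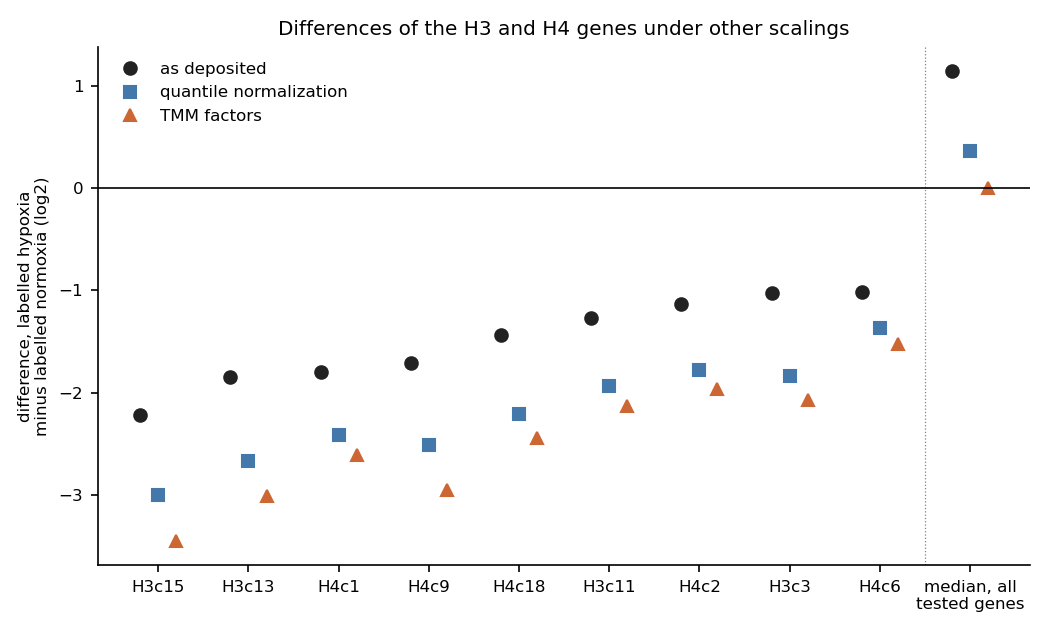
The vertical axis gives the difference between the libraries labelled hypoxia and those labelled normoxia (log2), for each H3 and H4 gene and for the median of all tested genes, as deposited (circles), after quantile normalization (squares) and with TMM factors (triangles). The 9 genes lie below 0 under all 3, at -1.02 or lower, while the median of all tested genes moves from 1.15 to 0.0037. The scalings were computed from the selected genes alone and carry most genes down, so this is no independent check.

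RNAs that lack a poly(A) tail were looked at beside the histone genes. Malat1, a nuclear long noncoding RNA whose end is cut and folded into a triple helix, stood at 5.72, 5.88 and 6.06 with the normoxia label and at 3.61, 3.76 and 3.38 with the hypoxia label, a change of -2.30 ± 0.12 (limma, adjusted p = 1.4e-07). The groups were separated by nearly as much as those of H3c15. Snord3a, a small nucleolar RNA, changed by -1.52 ± 0.43 (limma, adjusted p = 0.0102), and these 2 were the listed genes of the list for such RNAs (14 names and the small nucleolar and Cajal body families). The table's own types for small RNAs were counted after their values were seen: of 9 rows typed snRNA, snoRNA, scaRNA or misc_RNA, 8 were tested, and all 8 were called lower, with a median of -1.38, where 20.6% of all tested genes were called lower. They include rows named U1 (-2.76 ± 0.93), U2 (-1.33 ± 0.31) and U3 (-1.35 ± 0.19), and 3 named 7SK (-1.44, -1.35 and -1.30). The ninth row, an unnamed misc_RNA, was at 0 in all 3 normoxia libraries and between 0.95 and 1.09 in the hypoxia libraries. Among the normoxia libraries replicate 4 was the highest in 1 of the 8 small RNAs, and replicate 2 in 5. Replicate 4 was the highest in 8 of the 9 H3 and H4 genes, but in 3 of the 6 H2A genes. It was the highest in all 3 lower H2B genes. Replicate 2 was the lowest in 4 of the 6 H2A genes, in all 3 lower H2B genes and in 1 of the 8 small RNAs. The groups overlapped for U1, where hypoxia replicates 1 and 2 were at 0 and replicate 4 at 3.27. The part of poly(A) selection in the histone result was not tested.

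**Figure D4:**
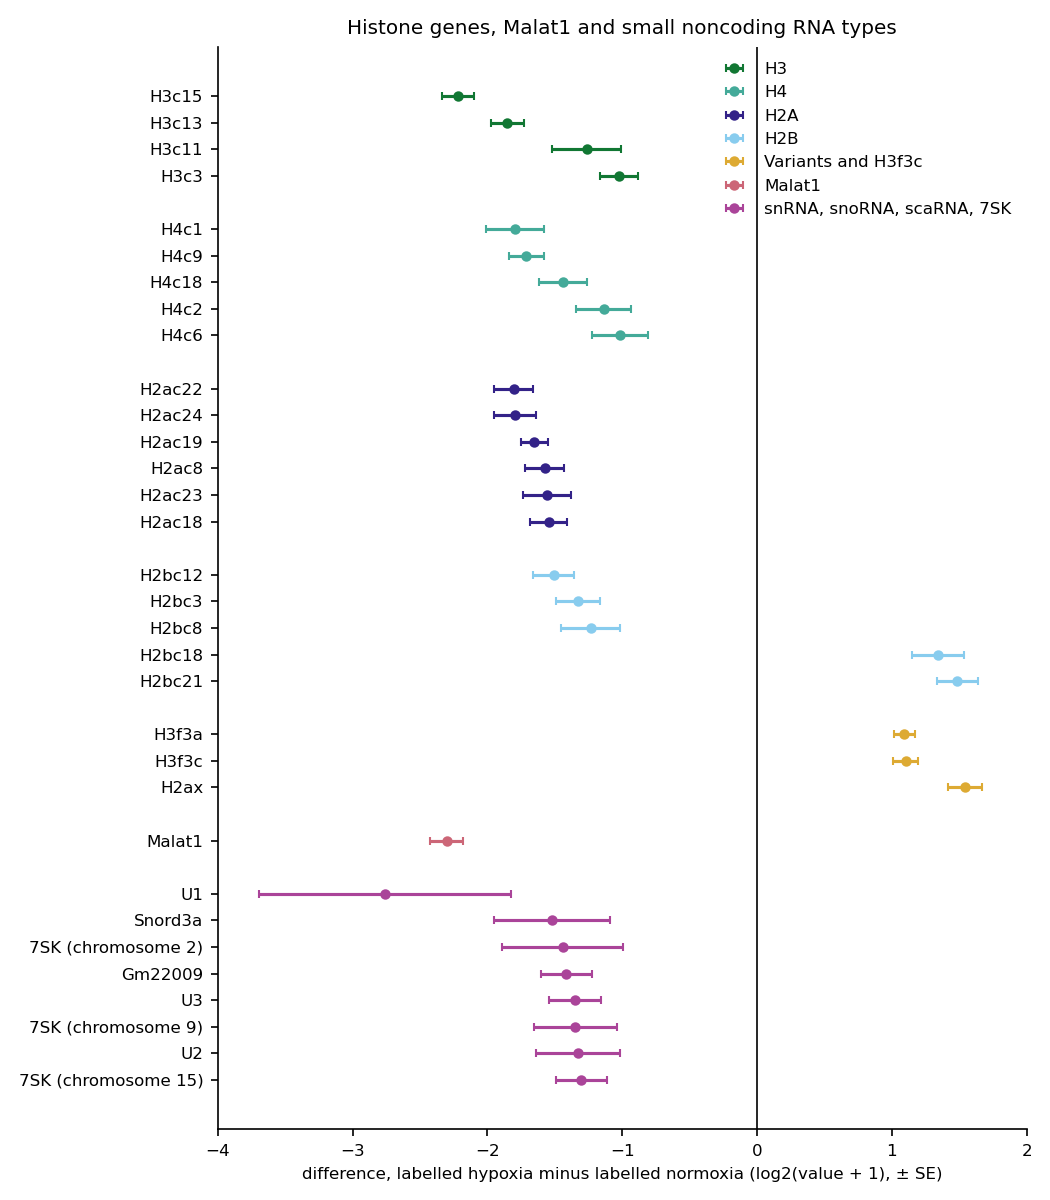
The horizontal axis gives the difference between the libraries labelled hypoxia and those labelled normoxia on the log2(value + 1) scale, with SE from limma, for listed histone genes by family, Malat1 and tested rows of the small RNA types. H3, H4 and H2A genes lie between -2.22 and -1.02, H2bc18 and H2bc21 and the H3f3a, H3f3c and H2ax rows lie above 0 as deposited (H3f3a and H3f3c fall below 0 with TMM factors), and Malat1 and the small RNAs lie below 0.

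Genes that act on histone RNA and protein were mostly outside the table. Of 27 factors for transcription and end processing of histone RNA 3 were listed. The cleavage stimulation subunits Cstf3 (1.12 ± 0.09) and Cstf2t (1.12 ± 0.09) were called higher, both below 0 with TMM, and Pou2f1, which encodes the octamer-binding factor known for activating H2B genes, was called lower (-1.27 ± 0.10). The stem-loop binding protein gene Slbp and the histone locus body gene Npat were among those outside it and have no value here. Of 26 histone chaperones 1 was listed, Asf1b, which carries new H3 and H4 to replicating DNA (1.16 ± 0.10, below 0 with TMM). Of 32 genes for adding or removing poly(A) tails 2 were listed, the deadenylase subunit Cnot6 (1.20 ± 0.10, below 0 with TMM) and Tent5a, a cytoplasmic poly(A) polymerase (-2.05 ± 0.10).

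Of 42 genes of DNA replication 4 were listed, and all 4 were called higher, as were 79.4% of tested genes, where the histone genes were lower. Thymidine kinase Tk1, a marker of S phase, stood at 5.44, 5.11 and 5.26 with the normoxia label and at 7.22, 7.20 and 7.27 with the hypoxia label. It rose by 1.96 ± 0.09 (limma, adjusted p = 7.08e-08) and was still called higher with TMM factors. Thymidylate synthase Tyms (1.28 ± 0.07) and the replication factor Gins3 (1.08 ± 0.12) were below 0 with TMM. Of 22 genes of S-phase entry 3 were listed, all called higher: cyclin D1, Ccnd1 (2.06 ± 0.13), the ubiquitin ligase subunit Skp2 (1.46 ± 0.10) and the repressor E2f8 (1.35 ± 0.13), the last not called with TMM. Of 30 mitosis genes 0 were listed. Of 18 genes of cell cycle arrest 7 were listed, 4 higher and 3 lower, among them the unconventional cyclin Ccng2 (-2.55 ± 0.11), the stress genes Gadd45g (-2.09 ± 0.11) and Gadd45b (-1.56 ± 0.10), and the antiproliferative Btg2 (1.42 ± 0.08), which TMM left uncalled. Of the 4 higher ones 3 fell below 0 with TMM, and 0 were still called higher.

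The promoters of the H3 and H4 genes are shown because the genes were lower together. RefSeq (GRCm38.p6, an older build than the authors') gave a promoter for 9 of 9, from 250 bases before to 50 after the start. Stretches of 120 bases up to the base before the start are printed for 4 genes, with the CCAAT box, the TATAA box and the letters GGTCCG (each on either strand) in capitals. GGTCCG is the core of an element that H4 promoters share.
H4c9: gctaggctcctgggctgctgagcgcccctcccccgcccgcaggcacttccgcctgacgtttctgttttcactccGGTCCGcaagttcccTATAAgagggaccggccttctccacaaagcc
H4c18: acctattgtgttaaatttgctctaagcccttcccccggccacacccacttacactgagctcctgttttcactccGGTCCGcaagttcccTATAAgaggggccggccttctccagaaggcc
H3c3: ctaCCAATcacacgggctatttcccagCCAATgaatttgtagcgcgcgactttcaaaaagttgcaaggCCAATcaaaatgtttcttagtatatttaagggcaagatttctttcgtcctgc
H3c13: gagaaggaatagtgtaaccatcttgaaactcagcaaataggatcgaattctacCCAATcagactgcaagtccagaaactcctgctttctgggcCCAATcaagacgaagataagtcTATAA
They lie at chr13:22041363-22041482, chr13:21832198-21832317 and chr13:23745522-23745641 on the minus strand and at chr3:96268534-96268653 on the plus strand. H4c9 and H4c18 share 56 of the last 60 bases, with GGTCCG and TATAA at the same places. In the full windows GGTCCG occurred in 4 of 5 H4 and 1 of 4 H3 promoters, and in 8.3% of all 32851 promoters. CCAAT occurred in 4 of 4 H3 and 1 of 5 H4 promoters and in 37.4% of all. TATAA occurred in 5 of 5 H4 and 2 of 4 H3 promoters and in 24.9% of all. The TATAA matches of H4c1, H4c2 and H4c6 are not within the 120 bases before the start. Nor are the GGTCCG match of H4c2 and the CCAAT match of H3c15. The TATAA of H3c13 ends directly at the start. A match in the full window is therefore not a positioned TATA box or other positioned element. The octamer ATTTGCAT occurred in 0 of 9 and in 1.7% of all. In H3c11 GGTCCG and CCAAT overlap on opposite strands. A match is a string of letters and no measured binding.

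The genes whose profile over the 6 libraries was most like that of the H3 and H4 genes were found by the Euclidean distance between centred entries and the members' median profile. The nearest 5 named genes outside the histone families were Pdgfra (0.25), which encodes a growth factor receptor of mesenchymal cells, Rybp (0.30), which encodes a Polycomb subunit, the long noncoding RNA Proscos (0.35), Wdfy1 (0.36) and Ddit4 (0.40), an inhibitor of mTOR signalling. The members themselves lay between 0.23 (H4c18) and 0.90 (H3c15) from their own median profile. Pdgfra had entries of 5.98, 6.19 and 6.39 with the normoxia label and 4.67, 4.69 and 4.67 with the hypoxia label. Its order among the normoxia libraries is favoured by the way it was picked and is no separate observation. Wdfy1 was highest in normoxia replicate 3 (5.78, against 5.74 in replicate 4).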

How the data were processed

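Messenger RNA of MLO-Y4 cells was sequenced in 3 libraries labelled normoxia and 3 labelled hypoxia. FastQC 0.12.0, DRAGEN and the build GRCm39 (mm39) appear in the submitters' processing notes. How reads were counted and scaled, and which test the authors ran, the sources used here do not give. Deposited by the authors was 1 log2 entry per gene and library, beside a log2 fold change (the difference of the group means) and an adjusted p-value per the file headers. Undoing a log2(value + 1) transform left values of 3 decimals in 100% of cases (tolerance 1e-06), and the entries were read on that scale. Not used were 18 columns that repeat library values and 3 columns of mice that belong to no sample. The unit is not a count, so limma 3.58.1 (R 4.3.3; trend and robust estimation, two-sided) was run on the 2056 genes reaching a linear value of 1 in 3 or more libraries (9 left out), Benjamini-Hochberg adjusted, threshold 0.05. It was tested on simulated data. Lists were named by up to 4 listed members with the smallest adjusted p. One gene that this rule names is not reported here. The members, lists and tests were chosen with earlier results of these data known. Transcripts came from GENCODE vM21 (GRCm38), matched by Ensembl identifier, and promoters from RefSeq, matched by symbol, for 9 of 9 genes. Alternatives were pseudocounts of 0.1 and 5, no filter, a filter of 5, quantile normalization, TMM factors (unweighted), limma without trend, a replicate block, each library left out (for the linear ratios added after seeing the data), and a threshold of 0.01.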

Additional observations from a re-analysis of the deposited data

How the results depend on the processing

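In all 131 combinations of 1 of the 9 genes with an alternative, the gene was lower and still called. This says little of these genes in particular, as all listed genes were selected for a difference. With a pseudocount of 5, for example, 1633 of all tested genes were called higher and 423 lower, the same counts as in the main fit. With a filter of at least 5 in 3 libraries, 5 of the 9 genes could be tested and all 5 were called lower, as fewer genes are tested by construction. TMM factors left 543 genes called higher in place of 1633, and 511 called lower in place of 423. The sizes depend on the pseudocount: H4c6 changed by -2.58 with 0.1 and by -0.31 with 5, and H3c15 by -2.29 and -1.96. With a pseudocount of 0.1, an alternative added after seeing the data, the difference of the change of H3c15 from that of H4c1 turned to 0.33 and from that of H4c6 to 0.29. Leaving out each library in turn gave differences of -2.32 to -2.09 for H3c15, -1.42 to -0.97 for H3c11 and -1.19 to -0.81 for H4c6. The groups share replicate numbers 2 and 4, and deviations of same-numbered libraries correlated across genes with r = 0.08 and -0.07, so the numbers were not taken to pair libraries. With the replicate block 9 of 9 genes were called lower (H3c15 by -2.27, H3c11 by -0.88), and 1627 genes were called higher and 418 lower. That fit compares the groups within replicate numbers 2 and 4 alone. It leaves too little spread for its p-values to be relied on, so its calls are no further check. With no named unit and no depth, counting error of the low genes H3c11, H4c1, H4c2 and H4c6 is unknown.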

Other observations

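Within the H3 family the make-up of the summed linear value differed between the groups. H3c15 made up 65.8% to 67.4% of the sum of the 4 H3 genes with the normoxia label and 56.7% to 61.7% with the hypoxia label. H3c3 made up 6.57% to 7.23% and 10.4% to 14.7%, so neither gene's shares overlapped between groups. Among the 4 H3 genes H3c15 has the largest ratio of linear means and H3c3 the smallest, so the direction of these 2 shifts follows from that. H3c13 made up 20.8% to 24.0% and 21.1% to 25.6%, which overlap. H3c11 made up 3.64% to 5.08% and 2.08% to 7.49%, which also overlap. Within the H4 family H4c9 made up 71.5% to 75.6% and 73.9% to 80.1%, which overlap. H4c1 made up 7.53% to 7.96% with the normoxia label and 2.99% to 7.25% with the hypoxia label, which do not overlap. Its linear values with the hypoxia label are low. The shares of H4c18, H4c2 and H4c6 overlapped between groups. The ratio of the H4 sum to the H3 sum was 0.60, 0.66 and 0.70 with the normoxia label and 0.85, 0.81 and 0.69 with the hypoxia label, and the ranges overlap. The shares rest on a linear unit that is not named and on copies that share reads, and no test was made of them.

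Histone pseudogenes were listed as well. H2af-ps2, a processed pseudogene on chromosome 13, was at 6.20, 6.33 and 6.46 with the normoxia label and at 4.83, 4.79 and 4.64 with the hypoxia label (change -1.58 ± 0.09). H2ac5-ps, an unprocessed pseudogene on chromosome 13, changed by -1.06 ± 0.20. Both were chosen after their values were seen.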
